A study of Drosophila melanogaster with 2 samples.

Results

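Genes named for male-specific transcripts (Mst), accessory gland peptides (Acp) and seminal fluid proteins (Sfp) were examined in male fly heads, a body part that holds neither testis nor accessory gland. They served as a check of abdominal tissue carried into the head samples. Members were the probe sets with a single gene symbol that starts with Mst, Acp or Sfp followed by a number. This gave 28 probe sets for 28 genes, out of 13966 probe sets that are not controls: 14 Mst, 14 Acp and 0 Sfp. Another probe set, shared by Acp33A and a second gene, was left out. The members were divided by symbol into 8 testis genes (Mst84, Mst87 and Mst98), 14 accessory gland genes (Acp and Mst57), 4 other Mst genes and 2 genes whose Acp stands for adult cuticle protein (Acp1 and Acp65Aa).

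Heads came from adult males of the w1118 strain of Drosophila melanogaster, an inbred laboratory stock with white eyes, also written w118 in the labels. The paraquat group was 1 array of heads at adult day 3 from flies fed sucrose with 15 mM paraquat for 30 h from adult day 2. The unexposed group was 1 array of heads at adult day 3 from flies in food bottles. Paraquat is a herbicide that generates superoxide inside cells. Both groups were collected within 24 h of eclosion and kept dark, about 200 to a bottle, at 25 °C and a humidity of 70%. Frozen heads were shaken off in liquid nitrogen and separated from bodies with a sieve. Flies fed sucrose without paraquat were not analysed here, so paraquat and diet cannot be told apart. With 1 array a group, no difference had a replicate check and no test was made. In such bulk samples, fewer cells of a type and less RNA per cell cannot be told apart.

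The testis genes of this group are transcribed in the male germ line. Mst84D, Mst87F and Mst98C genes encode proteins of the sperm tail that are rich in cysteine, glycine and proline, and their messages are stored through meiosis and translated in elongating spermatids. The accessory glands are paired abdominal glands that secrete peptides, lectins, protease inhibitors and prohormones into the seminal fluid. These act in the mated female on egg laying, sperm storage and receptivity. In fly expression work such transcripts are commonly used as marks of the male reproductive tract, because their levels there are very high.

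Intensities are linear values per probe set, scaled to the same median on both arrays, and values below 0 arise where the background taken off was larger than the signal. The floor for a measured value was an intensity of 477. Absent controls, which are probe sets for transcripts not in the samples, reached at most 533 on the paraquat array and 446 on the unexposed array. Their SD was 358 over 46 values, so intensities near or under the floor cannot be told from background. Ratios are paraquat over unexposed. Where the paraquat array was under the floor, the text writes "at least N-fold lower", which is the unexposed value divided by the floor. Such a bound does not allow for array error, so for dim members it is not a firm minimum. The array error is 1 SE built from control probe sets and leaves out the spread between flies and RNA preparations.

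Most members reached the floor on the unexposed array and few did on the paraquat array. Of the 28 members, 4 reached it on the paraquat array and 19 on the unexposed array, beside 59.9% of all probe sets on the paraquat array and 59.7% on the unexposed array. Among the 14 accessory gland genes the numbers were 0 on the paraquat array and 9 on the unexposed array. Among the 8 testis genes they were 3 on the paraquat array and 7 on the unexposed array. Of the 19 members above the floor on 1 or both arrays, 11 were at least 2-fold lower with paraquat and 0 at least 2-fold higher. Over all 9274 probe sets above the floor on 1 or both arrays, 9.65% were at least 2-fold lower and 9.48% at least 2-fold higher. The median log2 ratio of the 19 members was -1.11 with floor values kept, beside 0.03 over the 9274 probe sets. For 15 of the 19, above the floor on the unexposed array alone, the ratio is a bound below 0 by construction. The 4 members measured on both arrays had a median of -1.14.

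The signs of the differences did not rest on the floor. With every member counted and no floor set, 23 of 28 had a lower intensity on the paraquat array, beside 49.2% of all probe sets. The difference was below 0 by over 2 array SE in 12 of the 28, beside 10.8% of all probe sets, and above 0 by over 2 array SE in 0, beside 10.8%. By class, the 12 were 7 of 8 testis genes, 4 of 14 accessory gland genes and Acp1. Summed over the 8 testis genes, the intensity was 4142 on the paraquat array and 28285 on the unexposed array. Summed over the 14 accessory gland genes, it was -2080 on the paraquat array, at or under background, and 22353 on the unexposed array.

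**Figure D1:**
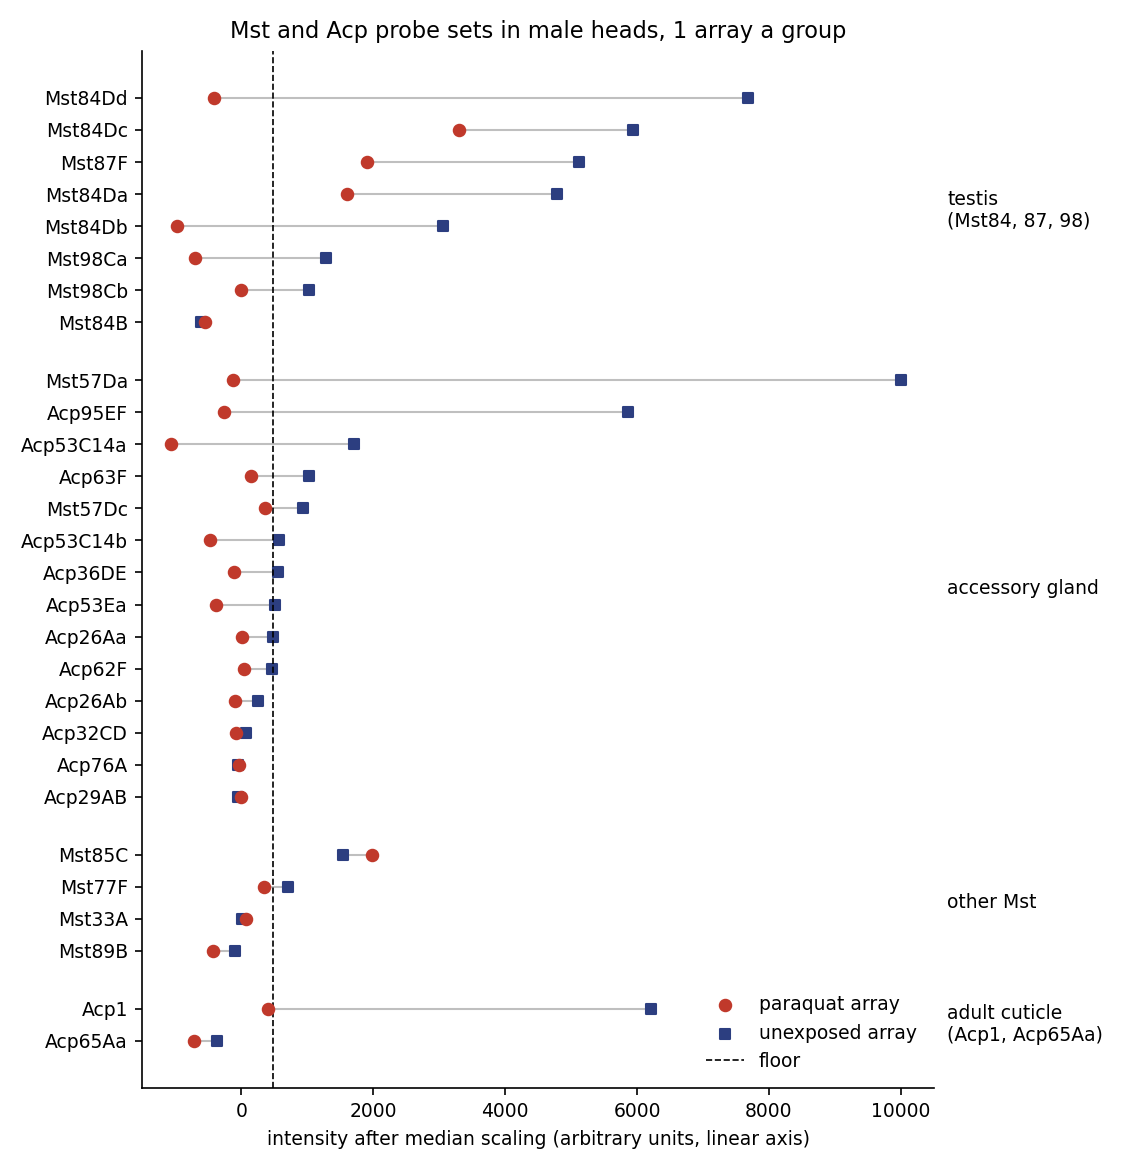
Intensity after median scaling (linear axis, arbitrary units) of all 28 members on the paraquat array (circles) and the unexposed array (squares), by class, with the floor of 477 as a dashed line. All 14 accessory gland genes sit below the floor on the paraquat array, and Mst84Da, Mst84Dc, Mst87F and Mst85C are the members above it there.

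The Mst84D genes, 4 small sperm tail genes, were all above the floor in unexposed heads and differed widely in paraquat heads. In the gene order of assembly Release 6 they are direct neighbours on chromosome arm 3R, with 0 genes between them. Mst84Dc had an intensity of 3296 on the paraquat array and 5934 on the unexposed array, 1.80-fold lower (log2 -0.85 ± 0.21, array error). It was the only testis gene above the floor on both arrays that did not pass 2-fold. Mst84Da had 1604 on the paraquat array and 4791 on the unexposed array, 2.99-fold lower (log2 -1.58 ± 0.36). The other two genes of the cluster had values below 0 with paraquat. Mst84Db had -979 on the paraquat array and 3061 on the unexposed array, at least 6.41-fold lower. Mst84Dd had -417 on the paraquat array and 7689 on the unexposed array, at least 16.1-fold lower. The ratio of Mst84Dd thus lay further below that of its neighbour Mst84Dc than the array error of Mst84Dc spans. All 28 members have the plain probe set suffix that Affymetrix gives to probes chosen for 1 sequence. Whether probes of these related genes also bind each other's transcripts was not tested.

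Outside this cluster, the other sperm tail genes were also lower with paraquat. Mst87F, whose message is a textbook case of translational control in spermatids, had 1899 on the paraquat array and 5112.5 on the unexposed array, 2.69-fold lower (log2 -1.43 ± 0.31). Its ratio differed from that of Mst84Da by less than the array error of either. Mst98Ca and Mst98Cb, a neighbouring pair on 3R, were above the floor in unexposed heads and under it in paraquat heads. Mst98Ca had -709 on the paraquat array and 1282 on the unexposed array, at least 2.69-fold lower. Mst98Cb had -4.7 on the paraquat array and 1032 on the unexposed array, at least 2.16-fold lower. Against the highest absent control of the paraquat array, the bound for Mst98Cb was 1.94-fold, under 2-fold. Mst84B, which shares the letters of the cluster but lies apart from it on 3R with 65 genes between, was under the floor on both arrays (-547 with paraquat, -615 unexposed). In all, 7 of the 8 testis genes were above the floor on 1 or both arrays. Of these 7, 6 were at least 2-fold lower and 0 at least 2-fold higher, beside 9.65% and 9.48% of all such probe sets. The median log2 ratio of these 7, of which 4 are bounds, was -1.43, and that of the 3 measured on both arrays was also -1.43.

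Among the accessory gland genes, short secreted peptides had the largest bounds. Mst57Da, which despite its Mst name encodes a peptide of the accessory gland, had -128 on the paraquat array and 9999 on the unexposed array, at least 20.9-fold lower. Its relative Mst57Dc, separated from it by 2 genes of which Mst57Db is another of the family, had 362 on the paraquat array and 935 on the unexposed array, at least 1.96-fold lower. Acp95EF, a small seminal peptide, had -262 on the paraquat array and 5863 on the unexposed array, at least 12.3-fold lower. For Mst57Da and Acp95EF the bounds against the highest absent control of the paraquat array were 18.8-fold and 11.0-fold. Both therefore stood far above the absent controls in unexposed heads and among them in paraquat heads.

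The 3 Acp53 members are direct neighbours on 2R and encode related seminal peptides. Acp53C14a had -1064 on the paraquat array and 1715 on the unexposed array, at least 3.59-fold lower. Acp53C14b had -477 on the paraquat array and 575 on the unexposed array, and Acp53Ea had -384 on the paraquat array and 517 on the unexposed array. For these 2 the unexposed value was so close to the floor that the bounds were 1.21-fold and 1.08-fold. Their differences in intensity were -1052 ± 508 for Acp53C14b and -901 ± 508 for Acp53Ea (array error), the first over 2 SE and the second not.

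The remaining accessory gland genes were under the floor with paraquat, and on the unexposed array all but Acp63F were near or under it. Acp63F had 149 on the paraquat array and 1018 on the unexposed array, at least 2.13-fold lower, and 1.91-fold against the highest absent control of the paraquat array. The difference for Acp63F was -869 ± 510 (array error), not over 2 SE. Acp36DE, a glycoprotein that sperm storage in the female requires, had -113 on the paraquat array and 557 on the unexposed array, with a bound of 1.17-fold. Acp26Aa, the prohormone ovulin that promotes ovulation, had 12.0 on the paraquat array and 479 on the unexposed array, at the floor. The difference for Acp26Aa was -467 ± 507, within 1 array SE. Its neighbour Acp26Ab, the protease inhibitor gene Acp62F, the lectin gene Acp29AB, Acp32CD and the serpin gene Acp76A were under the floor on both arrays. These 5 ran from -96.0 (Acp26Ab) to 40.4 (Acp62F) on the paraquat array. On the unexposed array they ran from -50.8 (Acp29AB) to 470 (Acp62F). Acp62F lay just under the floor there but above the highest absent control of that array (446), and the others lay under both. The difference for Acp62F was -429 ± 507 (array error), within 1 SE. None of these 5 well-known seminal fluid genes was told from background in either head sample. Of the 14 accessory gland genes, 9 were above the floor on 1 or both arrays. Of these 9, 4 were at least 2-fold lower and 0 at least 2-fold higher, beside 9.65% and 9.48% of all such probe sets. All 9 were above the floor on the unexposed array alone, so their ratios are bounds that lie below 0 by construction. The median of these bounds was -0.97 on the log2 scale, which tells only how far the unexposed values lay above the floor.

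The 4 other Mst genes were 1 above the floor on both arrays, 1 above it on the unexposed array alone and 2 under it on both. Mst85C had 1983 on the paraquat array and 1543 on the unexposed array, 1.29-fold higher (log2 0.36 ± 0.44). That difference was within 1 array SE, and Mst85C was the only member above the floor on both arrays with a ratio above 0. Mst77F, a protein that takes part in compacting sperm chromatin, had 350 on the paraquat array and 708 on the unexposed array, with a bound of 1.48-fold. Mst33A (64.0 with paraquat, 4.2 unexposed) and Mst89B (-430 with paraquat, -103 unexposed) were under the floor on both. None of the 4 was called past 2-fold, though the value for Mst77F is a bound.

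Of the 2 cuticle protein genes, which the letters of the symbols brought in, Acp1 had a bound close to that of the gland peptide Acp95EF. Acp1 had 410 on the paraquat array and 6210 on the unexposed array, a bound of -3.70 on the log2 scale, although it marks cuticle and not the reproductive tract. Acp65Aa was under the floor on both arrays (-721 with paraquat, -366 unexposed).

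**Figure D2:**
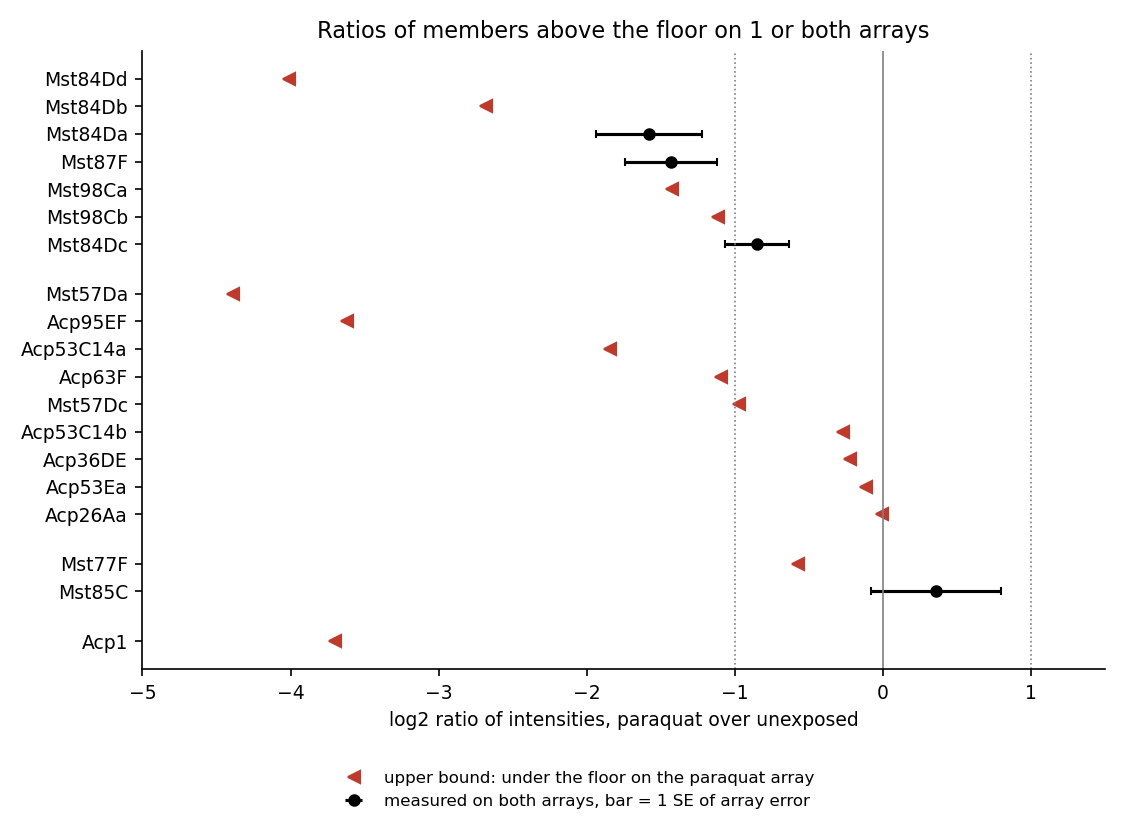
Log2 ratio of intensities, paraquat over unexposed, for the 19 members above the floor on 1 or both arrays, in the order testis, accessory gland, other Mst and cuticle. Circles with bars of 1 SE (array error) were measured on both arrays, and triangles are upper bounds for members under the floor with paraquat. The testis genes run from -0.85 (Mst84Dc) to a bound of -4.01 (Mst84Dd), and Mst85C alone lies above 0.

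The factor between the arrays differed widely among the members that were at least 2-fold lower or close to it. It ran from 1.80-fold in Mst84Dc, which was measured on both arrays, to at least 20.9-fold in Mst57Da. Mst84Dc, Mst87F and Mst84Da kept values between 1604 and 3296 with paraquat, whereas Mst84Db, Mst84Dd, Acp95EF and Mst57Da had values below 0 there.

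Other testis genes, from a list of germ line regulators and sperm proteins, were mixed. Of 33 probe sets for 29 genes, 8 (paraquat) and 12 (unexposed) reached the floor, beside 59.9% and 59.7% of all probe sets. Among the 14 above it on 1 or both arrays, 3 were at least 2-fold lower and 1 at least 2-fold higher. The shares over all such probe sets were 9.65% and 9.48%. The median log2 ratio of the 14 above the floor on 1 or both arrays was -0.45. Of the 33, 18 had a lower intensity with paraquat, beside 49.2% of all probe sets. The first 3 named here are those at least 2-fold lower. tHMG1, which encodes a chromatin protein of the testis, had 445 on the paraquat array and 1374 on the unexposed array, at least 2.88-fold lower. janB, a sperm protein gene, had -296 on the paraquat array and 1027 on the unexposed array, at least 2.15-fold lower. dj, which encodes a sperm tail protein, had 197 on the paraquat array and 1021 on the unexposed array, at least 2.14-fold lower. Against the highest absent control of the paraquat array the bounds for janB and dj were 1.93-fold and 1.91-fold, under 2-fold. The testis-specific tubulin betaTub85D had 154 on the paraquat array and 900.0 on the unexposed array. The late spermatid transcript r-cup had 107 on the paraquat array and 908 on the unexposed array. Both were under the floor with paraquat, and their bounds of 1.885-fold (betaTub85D) and 1.901-fold (r-cup) did not reach 2-fold. The gene at least 2-fold higher was c-cup, with 984 on the paraquat array and 473 on the unexposed array, a bound of 2.06-fold. Regulators that switch on the spermatocyte programme (aly, comr, tomb, topi, achi, can, mia and sa) were under the floor on both arrays, and nht, of the same group, had 664 on the paraquat array and 340 on the unexposed array. The summed intensity of the list was 47058 on the paraquat array and 71783 on the unexposed array, most of it from alphaTub84D and bol. alphaTub84D is a tubulin of many tissues, so the list is wider than its name.

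Few seminal fluid genes outside the Acp and Sfp names were detected on either array. Of 20 probe sets for 19 genes, 4 (paraquat) and 5 (unexposed) reached the floor, beside 59.9% and 59.7% of all probe sets. Among the 6 above it on 1 or both arrays, 2 were at least 2-fold lower and 0 at least 2-fold higher. The shares over all such probe sets were 9.65% and 9.48%. Anp, an antibacterial peptide of the ejaculatory duct, had 575 on the paraquat array and 3938 on the unexposed array. Its paraquat value was close to the highest absent control (533), so the log2 ratio of -2.78 ± 0.92 has a wide array error. SP, the sex peptide that alters female receptivity and was once named Acp70A, had 339 on the paraquat array and 1463 on the unexposed array, at least 3.06-fold lower. The odorant-binding protein gene Obp56g was bright on both arrays, with 27474 on the paraquat array and 37808 on the unexposed array (log2 -0.46 ± 0.12). CG9997 had 523 on the paraquat array and -74.5 on the unexposed array. The summed intensity of the list was 25973 on the paraquat array and 43147 on the unexposed array, mostly Obp56g. In the ejaculatory duct and bulb list, EbpIII had 95806 on the paraquat array and 140553 on the unexposed array. Gld went the other way, with 785 on the paraquat array and 125 on the unexposed array, under the floor there. Ebp and EbpII were under the floor on both.

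**Figure D3:**
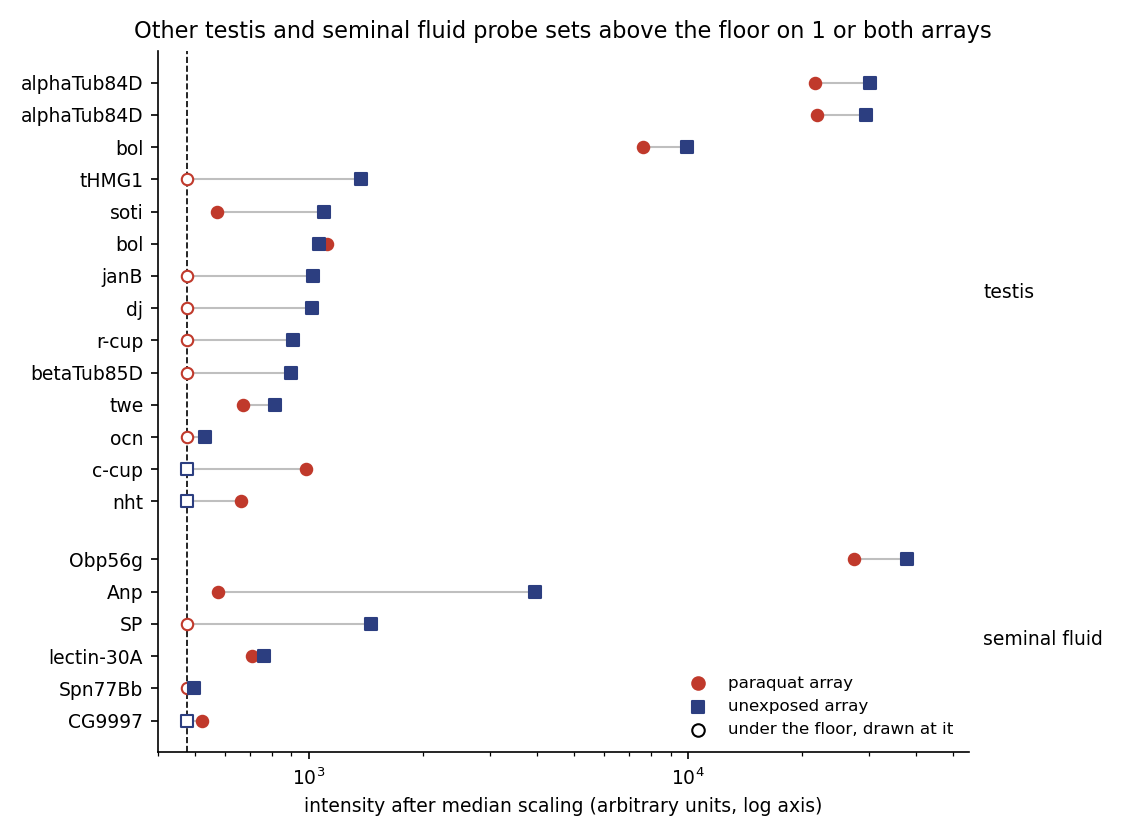
Intensity after median scaling (log axis, arbitrary units) of the other testis and seminal fluid probe sets above the floor on 1 or both arrays, with the paraquat array as circles and the unexposed array as squares. Open symbols are values under the floor of 477 (dashed), drawn at it, and Anp (575 with paraquat, 3938 unexposed) and SP (339 with paraquat, 1463 unexposed) lie furthest apart.

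Markers of other tissues that a body fragment could bring were compared in the same way. For each list, 2-fold calls come from probe sets above the floor on 1 or both arrays. Over all such probe sets, 9.65% were at least 2-fold lower and 9.48% at least 2-fold higher. Of all probe sets, 59.9% reached the floor on the paraquat array and 59.7% on the unexposed array. Of 37 gut enzyme probe sets, 16 reached the floor on the paraquat array and 23 on the unexposed array. Among the 24 above it on 1 or both arrays, 5 were at least 2-fold lower and 1 at least 2-fold higher. The median log2 ratio of these 24 was -0.62. The summed intensity of all 37 was 41944 on the paraquat array and 73857 on the unexposed array. Of 29 muscle probe sets, 20 reached the floor on the paraquat array and 23 on the unexposed array. A lower intensity with paraquat was found in 19 of the 29, beside 49.2% of all probe sets. Among the 23 above the floor on 1 or both arrays, 5 were at least 2-fold lower and 1 at least 2-fold higher. Their median log2 ratio was -0.36. The muscle sums were 151804 on the paraquat array and 259398 on the unexposed array. These counts and sums include several probe sets of mod(mdg4), a gene not particular to muscle, so the list is wider than its name. The light chain gene Mlc2 had 29008 on the paraquat array and 104443 on the unexposed array, 3.60-fold lower (log2 -1.85 ± 0.12). The troponin C gene TpnC41C had 9997 on the paraquat array and 30132 on the unexposed array, 3.01-fold lower. The paramyosin gene Prm had 214 on the paraquat array and 2866 on the unexposed array, a bound of -2.59 on the log2 scale. Other muscle genes went the other way, and Zasp66 had 58368 on the paraquat array and 31722 on the unexposed array, 1.84-fold higher (log2 0.88 ± 0.12). Muscle is also part of the head. The flight muscle genes fln and TpnC4 were under the floor on both arrays. Act88F, the flight muscle actin, had 422 on the paraquat array and 853 on the unexposed array. In the Malpighian tubule list, 6 of 11 probe sets reached the floor on each array, and its sums were 9713 on the paraquat array and 13370 on the unexposed array. Among the 7 above the floor on 1 or both arrays, 2 were at least 2-fold lower and 1 at least 2-fold higher. The thoracic Hox gene Antp had 1168 on the paraquat array and 510 on the unexposed array in 1 of its probe sets (2.29-fold higher, with an array error of 1.11 on the log2 scale), and was under the floor in the other. How far such tissues, or the reproductive tract itself, take part in other differences between these arrays was not tested.

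Photoreceptor and neuron markers were detected in equal numbers on both arrays. Of 18 photoreceptor probe sets 17 reached the floor on each array, with sums of 537485 on the paraquat array and 580857 on the unexposed array. Their median log2 ratio was -0.10, with 2 at least 2-fold lower and 1 at least 2-fold higher. Of 15 neuronal probe sets 11 reached the floor on each array. Among the 12 above it on 1 or both arrays (median -0.27), 1 was at least 2-fold lower and 0 at least 2-fold higher. The shares over all such probe sets were 9.65% and 9.48%. The head Hox gene Dfd had 1662 on the paraquat array and 1997 on the unexposed array (log2 -0.27 ± 0.42). Most head fat body products were far lower with paraquat. Of 12 probe sets above the floor on 1 or both arrays, 9 were at least 2-fold lower and 0 at least 2-fold higher. The shares over all such probe sets were 9.65% and 9.48%, and the median log2 ratio of the 12 was -2.48. Apoltp (log2 0.445 ± 0.123, array error) and Yp2 (log2 0.74 ± 0.952) were higher with paraquat, and Yp3 was little changed (log2 -0.261 ± 0.208). Lsp2, a storage protein of that tissue, had 539 on the paraquat array, close to the highest absent control, and 113535 on the unexposed array. The 3 control probe sets for 18S ribosomal RNA had log2 ratios between -1.01 and -0.92, lower on the paraquat array. The labels give the molecule as total RNA while their protocol describes poly(A) RNA, so how much ribosomal RNA the samples should hold is not settled. Its part in the members' differences was not tested.

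**Figure D4:**
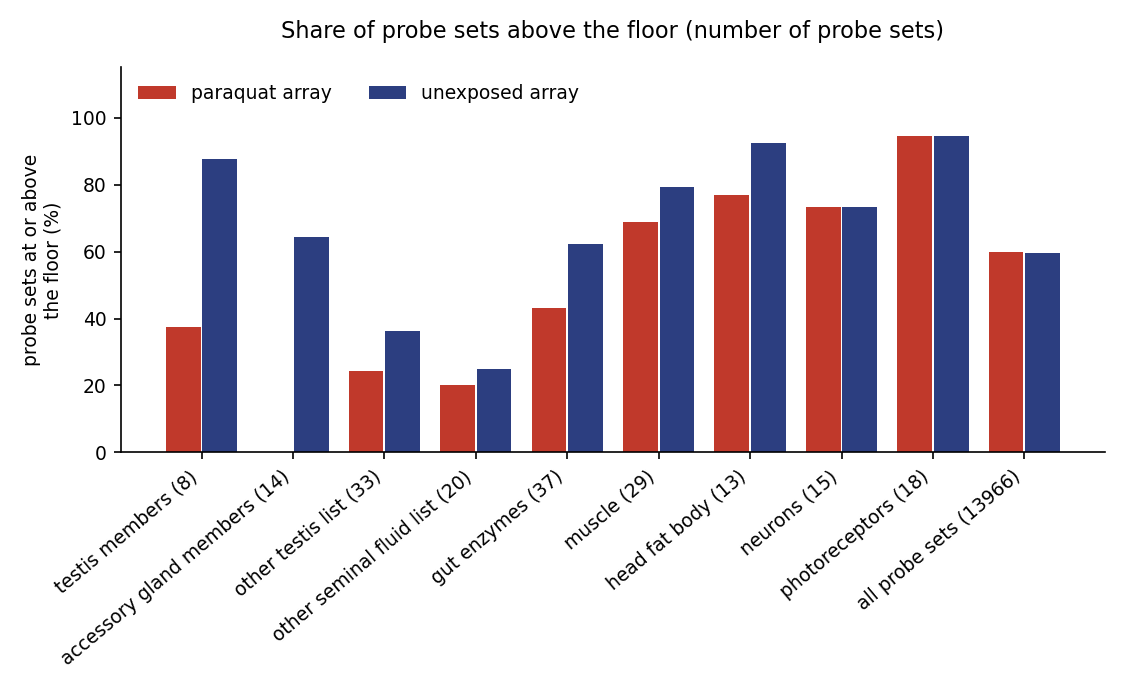
Percent of probe sets that reach the floor on the paraquat array (left bars) and the unexposed array (right bars), for the testis and accessory gland members, other marker lists and all probe sets, with the number of probe sets in brackets. Accessory gland members stand at 0 with paraquat and 64.3% unexposed, testis members at 37.5% with paraquat and 87.5% unexposed, and photoreceptor, neuronal and all probe sets are nearly level.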

How the data were processed

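Male head RNA was measured on 2 Affymetrix DrosGenome1 arrays, 1 a group, and the titles of the samples gave the groups. The deposited intensities are on a linear scale, 1 for each probe set, scaled by the authors so that the mean after removal of 2% at each end was 2500 on both arrays, as read from the values. The software behind the summary was not given in the sources used here. Controls made up 44 of the 14010 probe sets. From there, both arrays were scaled to a common median of 825.2 over the 13966 other probe sets (factors 0.99 for paraquat, 1.01 for unexposed), and the floor was the 40th percentile of each probe set's mean over both arrays. The array error combines the SD of absent controls (358.3 over 46 values) with the SD over 9 spiked controls of their log2 ratios (0.12). Having 1 array a group limits the precision throughout.

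Symbols came from a platform annotation of 2016, in which 12443 probe sets had a single symbol. The gene IDs of all 28 members matched the NCBI RefSeq table of assembly Release 6, used for names and gene order alone. No coordinates are printed, since the arrays' build is not given in the labels. The members and lists were chosen with earlier results of these data known. Every member is reported. In each other list up to 4 genes were to be named, by the size of the log2 ratio, and further genes of the lists were named after their values were seen. The counts without a floor were added after the data were seen. Calculations used Python 3.11.15, numpy 2.4.6, pandas 2.3.3 and statsmodels 0.14.6 and were tested on simulated data. Alternatives were other floors, the deposited scaling, quantile and loess normalization, a pseudocount, and other choices of members.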

Additional observations from a re-analysis of the deposited data

How the results depend on the processing

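No paired analysis was possible because each group held 1 array and no replicate numbers are given. Higher floors removed most dim members. With the floor at the 60th percentile (1339), 10 members reached it on the unexposed array, 3 of them accessory gland genes, and 7 members were at least 2-fold lower, 2 of them accessory gland genes. With the floor at the 80th percentile (3642), 0 members, and 0 testis genes, reached it on the paraquat array, and 7 did on the unexposed array (4 testis, 2 accessory gland). At that floor 2 members were at least 2-fold lower (1 testis, 1 accessory gland), because each bound is taken against the floor. With a pseudocount in place of the floor, 7 accessory gland genes were at least 2-fold lower, against 4. The other 75 of 88 counts under alternatives stayed within 1.5 times the count reported. Some of these could not change. As no member has a probe set suffix for shared probes, leaving such probe sets out repeated the same counts. A count of 0 accessory gland genes on the paraquat array also cannot change under a higher floor. The 75 thus overstate the number of checks. Of 109 member ratios under alternatives, 103 were below 0, and the other 6 were those of Mst85C. For a member above the floor on the unexposed array alone, a bound against a common floor is below 0 by construction. Where a floor setting gave such a member a bound above 0, it was left out. The 103 therefore do not check the sign of those members. With values under the floor set to it, 12 ratios moved by over 1 array SE, all at the 2 higher floors. That SE is wide near the floor, and the pseudocount moved Acp53Ea to -1.06, against -0.12, and Acp26Aa to -0.97, against -0.01. With the highest absent control of each array as its floor, 9 members were at least 2-fold lower, without Mst98Cb and Acp63F. Intensities near the floor are limited by background, and no difference has a replicate check.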
